A study of Homo sapiens with 14 samples.

Results

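The control libraries of a Kasumi-1 study were compared with each other: 3 RNA-seq libraries of cells given a control shRNA and 2 of cells given DMSO, out of 14 samples in the series. They were chosen by their group labels, and the genes were those listed by Ensembl identifier in the count tables of both experiments, 12126 of the 16604 genes listed in either. The table of the knockdown experiment listed 16405 genes, and that of the compound experiment listed 12325.

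Kasumi-1 is a human acute myeloid leukemia line of myeloblasts with a translocation between chromosomes 8 and 21, and all libraries come from it. In the knockdown experiment, cells were infected with shCtrl lentivirus for 48 h, selected with puromycin for 48 h and harvested (shCtrl, n = 3, with shRBPMS, n = 3, as the other arm). In the compound experiment, cells received the solvent DMSO (n = 2) or RB98# (n = 2), and the labels give no time or dose. The shCtrl libraries carry 2 label sets: replicate 1 is set 1, and replicates 2 and 3 are set 2. Virus, puromycin, solvent, experiment and count table differ together between shCtrl and DMSO, so their parts in any difference cannot be told apart. Whether replicates came from separate cultures is not stated, and p-values therefore measure only the spread between these libraries, which may be technical.

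The translocation fuses RUNX1, a core transcription factor of blood formation, to the repressor RUNX1T1, and the leukemic cells are held at a granulocyte precursor stage with stem cell genes still active. A lentiviral vector can be sensed as foreign nucleic acid, and puromycin kills cells without the resistance gene by ending translation early, so vector controls are used to separate such responses from those to the hairpin. A gene's count also depends on the gene models used for counting, because reads from exons that are shared by genes may be given to one of them or to none.

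The depth over the shared genes was 23.74, 27.06 and 33.95 M counts (M, 1000000) in shCtrl replicates 1, 2 and 3, and 14.13 and 15.29 M in DMSO replicates 1 and 2. Levels below are CPM (counts per 1000000 over these genes, scaled by TMM factors). Levels that are compared between genes are given per length, on the TPM scale, from GENCODE v29 exons. The library of shCtrl replicate 1 stood apart from the other shCtrl libraries. Mitochondrially encoded genes held 15.4% of its counts, against 6.33% and 6.25% in replicates 2 and 3 and 8.24% and 8.34% in DMSO. RBPMS, the RNA-binding protein gene targeted in the study, was at 20.6 CPM in it, at 7.24 and 7.38 CPM in the other shCtrl libraries and at 7.44 and 6.65 CPM in DMSO. No control library received an RBPMS hairpin. Because replicate 1 stood apart, medians of gene lists are also given for it and for replicates 2 and 3 alone, and its part in each difference was not tested. Over all genes tested, those medians were -0.01 and 0.00.

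Both controls had the same leading genes. On the TPM scale, MT-CO1, a mitochondrially encoded subunit of cytochrome oxidase, ranked 1st in shCtrl and 2nd in DMSO (40990 and 45100, means of 3 and 2 libraries), and the 10 highest genes over the 5 libraries were all mitochondrially encoded. MPO, the myeloperoxidase of neutrophil granules, ranked 11th in shCtrl and 9th in DMSO with 13970 and 13110. PRTN3, proteinase 3 of the same granules, followed with 10740 and 7226, and ELANE, neutrophil elastase, with 2603 and 1588. Across genes, the log2 levels of both controls had a Pearson r of 0.935 over 12125 genes, which are not independent replicates. For 87.4% of genes the difference was within 2-fold.

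The identity of the line was visible in each library. MPO was at 11640, 16320 and 16350 CPM in shCtrl and at 13550 and 13480 CPM in DMSO, so the DMSO libraries lay between the shCtrl libraries. KIT, the receptor of stem cell factor, was at 1039, 658 and 713 CPM in shCtrl and at 823 and 836 CPM in DMSO. CD34, a surface marker of stem and progenitor cells, was at 288, 163 and 170 CPM against 216 and 208 CPM. For both, DMSO again lay inside the range of shCtrl. RUNX1 was at 825, 490 and 499 CPM in shCtrl and at 415 and 404 CPM in DMSO. RUNX1T1 was at 492, 204 and 209 CPM against 164 and 160 CPM. TRH, the precursor of thyrotropin-releasing hormone and a marker of this leukemia, was at 281, 110 and 109 CPM against 74.0 and 74.2 CPM. All 3 were higher in every shCtrl library than in DMSO, and most so in replicate 1, but none passed the test (adjusted p = 0.223, 0.237 and 0.172, edgeR quasi-likelihood test with Benjamini-Hochberg adjustment).

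**Figure D1:**
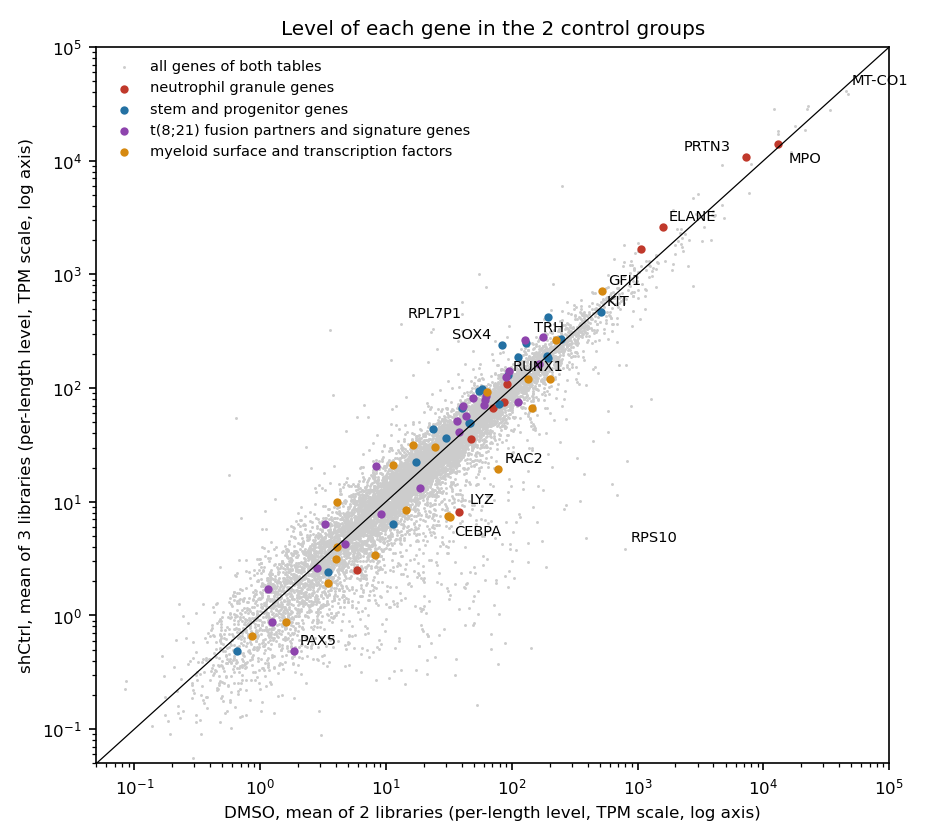
Level of each gene in DMSO (x axis, mean of 2 libraries) and shCtrl (y axis, mean of 3 libraries), both per length on the TPM scale with log axes; each point is a gene of both tables, coloured points are members of 4 lists and the line marks equal levels. Granule genes such as MPO (13110 and 13970) lie at the top near the line, while RPS10 lies far below it and the pseudogene RPL7P1 far above it.

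Few markers of other cells were among the shared genes, and most were low. In bulk RNA, fewer cells of a type and less RNA per cell cannot be told apart. Of 22 monocyte and macrophage markers, 8 were among the shared genes, with a summed level of 53.5 to 65.3 CPM in shCtrl and 86.1 to 90.8 CPM in DMSO. Of 21 lymphoid markers, 7 were shared, with 69.6 to 91.0 CPM against 105 to 106 CPM, most of it CD4. Of 15 erythroid markers, 4 were shared and summed to at most 21.3 CPM in any library. Of 16 fibroblast, endothelial and epithelial markers, 2 were shared (PECAM1 and EPCAM), with summed levels of 448, 123 and 130 CPM in shCtrl and of 147 and 153 CPM in DMSO. The summed granule genes were at 15760, 22480 and 22530 CPM in shCtrl and at 17140 and 17070 CPM in DMSO.

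Of 18 housekeeping genes tested, 0 were higher in shCtrl and 6 lower, against 4.55% and 8.78% of all genes called below. Their median log2 difference was -0.42, and 14 of them had a negative one. Some genes that are used as references, chosen for their small spread, hardly differed. B2M, the light chain of MHC class I, was at 588, 581 and 591 CPM in shCtrl and at 560 and 570 CPM in DMSO. HPRT1, a purine salvage enzyme, was at 58.4, 63.0 and 64.1 CPM against 64.3 and 62.6 CPM. The groups overlapped for HPRT1, and for B2M the difference was 0.05 on the log2 scale. USP1, a deubiquitinase named in the study's title, was at 175, 171 and 166 CPM against 159 and 178 CPM. By contrast, GAPDH, the glycolytic enzyme, was at 1700, 1874 and 1879 CPM in shCtrl and at 3421 and 3239 CPM in DMSO (log2 difference -0.87, SE 0.12, adjusted p = 0.0106, edgeR). All shCtrl libraries lay below DMSO.

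For the median gene, the label sets of shCtrl lay farther apart than set 2 and DMSO. The median absolute difference in log2 CPM over the genes tested was 0.451 and 0.445 between replicate 1 and replicates 2 and 3 of shCtrl, and 0.351 to 0.358 between replicates 2 and 3 and the DMSO libraries. Within set 2 it was 0.0669 and within DMSO 0.0866. For 6790 genes (56%) the difference between set 2 and DMSO was smaller than that between the shCtrl sets, and for 30.9% both DMSO libraries lay between the lowest and the highest shCtrl library. The root mean square difference, which weighs large differences more, had the opposite order. It was 0.725 and 0.711 between replicate 1 and replicates 2 and 3, and 0.894 to 0.896 between set 2 and DMSO. Among genes that share no exon base with another gene, pseudogenes left out, these values were alike. They were 0.6957 and 0.6859 between the shCtrl sets, and 0.6915 to 0.7015 between set 2 and DMSO. Of the variance between libraries, 71.3% lay on a principal component that parted shCtrl from DMSO, and 24.8% on one that parted replicate 1 from the other shCtrl libraries. The counts of shCtrl replicates 2 and 3 differed by more than sampling noise (chi-square per degree of freedom 3.42), as did those of the DMSO replicates (2.21). Both pairs were far closer than replicate 1 was to shCtrl replicates 2 and 3 (250 and 279).

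**Figure D2:**
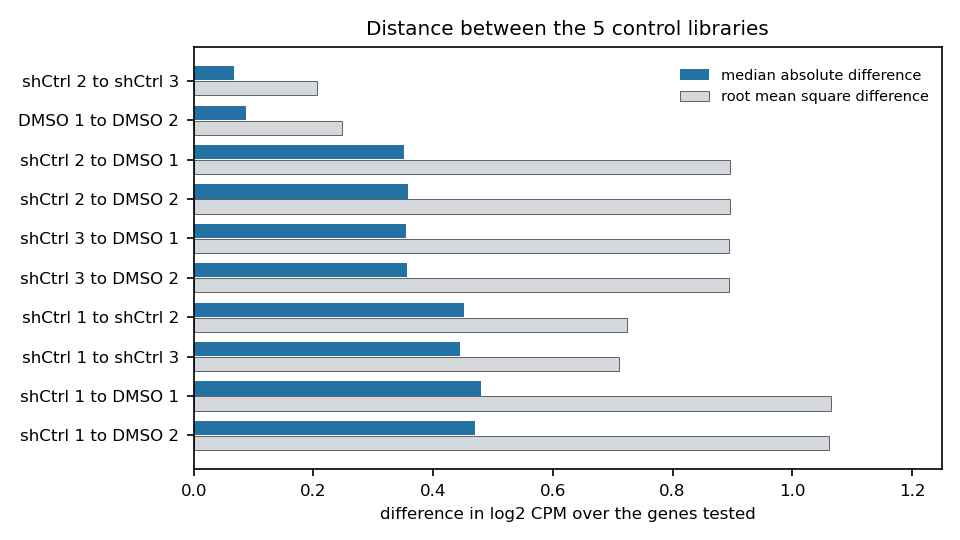
Distance between each pair of the 5 control libraries, as the median absolute (blue) and the root mean square (grey) difference in log2 CPM over 12125 genes (x axis). The median distance of shCtrl 1 to shCtrl 2 (0.451) exceeds that of shCtrl 2 to either DMSO library (0.351 and 0.358), whereas the root mean square distance does not.

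Of 12125 genes tested with edgeR's quasi-likelihood test, 1616 (13.3%) differed between shCtrl and DMSO at an adjusted p under 0.05: 552 were higher in shCtrl (4.55%) and 1064 lower (8.78%). At an unadjusted p under 0.05 there were 3713. These shares are the background for the counts of list members given below. In 3215 genes (26.5%) every shCtrl library lay above both DMSO libraries and in 3332 (27.5%) below. The count turned on single libraries. Without shCtrl replicate 1, 4169 genes were higher and 4116 lower. It was 111 and 460 without shCtrl replicate 2, 90 and 440 without shCtrl replicate 3, 9 and 189 without DMSO replicate 1, and 5 and 169 without DMSO replicate 2. Of 101 called genes that were chosen for description, 101 stayed called without shCtrl replicate 1, 55 and 50 without shCtrl replicates 2 and 3, and 22 and 19 without DMSO replicates 1 and 2. None changed direction. Called without each library in turn were 19 of them, of which 18 were lower in shCtrl (among them HSPA1A, HMGCS1, RAC2, LAPTM5, ALDH1L2 and RPS10) and 1 was higher (the pseudogene RPL7P1).

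The libraries of the other arms share no sample with the controls but were counted in the same tables. Between shRBPMS and RB98#, 361 of the 552 genes higher in shCtrl (65.4%) were also higher without overlap in the knockdown experiment, and 59 were lower without overlap. Over all genes tested the shares were 29.5% higher and 29.5% lower. Of the 1064 genes lower in shCtrl, 835 (78.5%) were also lower without overlap and 57 higher.

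The largest differences fell on genes whose models overlap others. RPS10, a protein of the small ribosomal subunit, was at 3.42, 2.73 and 2.31 CPM in shCtrl and at 556 and 534 CPM in DMSO (log2 difference -7.60, SE 0.21, adjusted p = 0.000179, edgeR). GENCODE v29 places RPS10 at chromosome 6, 34417454 to 34426125, of GRCh38 (minus strand), and 39.4% of its exon bases are shared with the readthrough gene RPS10-NUDT3. ALDOA, the aldolase of glycolysis, was at 4.94, 6.67 and 5.39 CPM against 459 and 431 CPM, with 42.3% of its exons shared. NME2, a nucleoside diphosphate kinase, was at 5.39, 11.7 and 9.92 CPM against 530 and 530 CPM and overlaps the readthrough gene NME1-NME2. RPL17, of the large ribosomal subunit, was at 9.39, 20.5 and 19.6 CPM against 605 and 577 CPM and overlaps RPL17-C18orf32. These encode abundant proteins of translation and metabolism, and shCtrl and DMSO did not overlap for any of them. All 12 genes with the widest gap on the lower side (mean log2 CPM of at least 4) share exon bases with another gene on the same strand.

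The same held across the table. Of 158 genes that are not pseudogenes with at least 50% of their exon bases shared on the same strand, 110 (69.6%) were lower in shCtrl and 2 higher, with a median log2 difference of -2.38. Of 1873 genes with a smaller shared part, 370 (19.8%) were lower and 54 higher, with a median of -0.18. Of 5754 genes with no shared exon base on either strand and no pseudogene, 308 were higher (5.35%) and 252 lower (4.38%), with a median of 0.11. With scaling factors from those genes alone, a choice made after the data were seen, 174 were higher and 257 lower, so that the higher share of calls was 40.4% and not 55%, and their median was 0.02. Of 52 called genes without such overlap that were chosen for description, 43 stayed called and none changed direction. Overlap does not cover every such gene: PFDN5, a prefoldin subunit with no overlap in GENCODE v29, was at 5.66, 7.50 and 7.04 CPM against 111 and 102 CPM. Of the 5754 genes without overlap, 26 (0.452%) were over 8-fold lower in shCtrl and 5 over 8-fold higher. After PFDN5, the widest gaps among them on the lower side belonged to HSPA1A, SDHA, EIF3C and U2AF1 (mean log2 CPM of at least 4). Overlap was judged by position alone, so near copies elsewhere in the genome, which also make counts uncertain, were not looked for. EIF3C was at 17.7, 43.5 and 18.2 CPM in shCtrl, so that replicates 2 and 3 differed for it.

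Pseudogenes made up the other end. The 7 widest gaps on the higher side were all pseudogenes. RPL7P1, a processed copy of the ribosomal protein gene RPL7, was at 120, 69.6 and 68.6 CPM in shCtrl and at 2.48 and 3.33 CPM in DMSO (log2 difference 4.88, SE 0.39, adjusted p = 0.00245, edgeR). MTND2P28, a nuclear copy of a mitochondrial gene, was at 582, 213 and 210 CPM against 17.6 and 15.8 CPM. Reads of such copies and of their parent genes cannot be parted with certainty. Of 319 pseudogenes tested, 56 (17.6%) were higher and 42 (13.2%) lower. The tables also differ in the names they give: 84.3% of the names in the knockdown table and 98.6% of those in the compound table are current RefSeq symbols, and they hold 1162 and 344 pseudogenes. The part of gene models in each difference was not tested, so the genes below are mainly ones that share no exon base on the same strand.

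**Figure D3:**
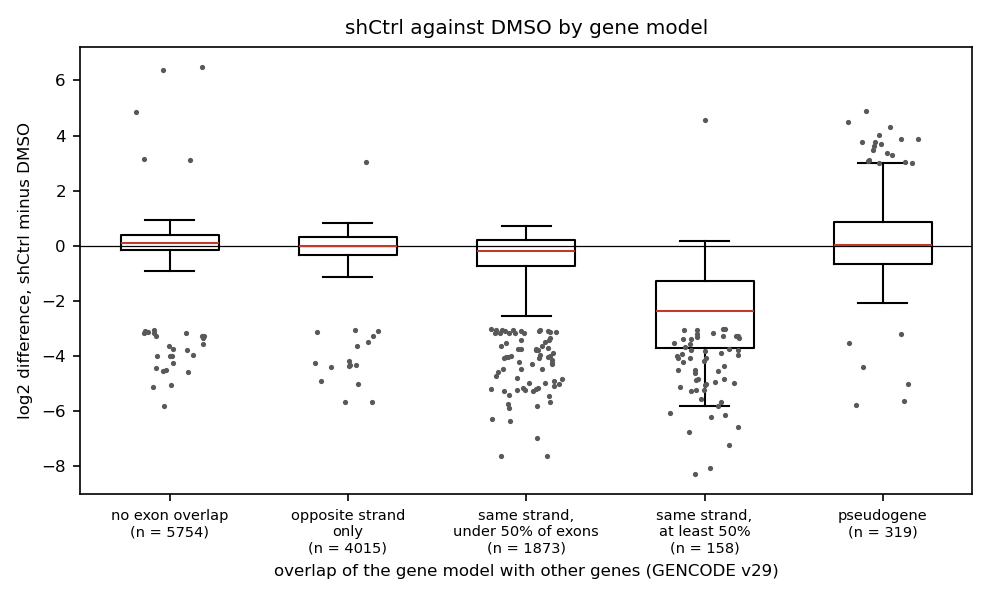
Log2 difference of shCtrl minus DMSO (y axis) for the genes tested, by overlap of their exons with other GENCODE v29 genes (x axis); boxes span the quartiles with the median in red, whiskers run from the 5th to the 95th percentile and dots are genes with a log2 difference beyond 3 in either direction. The median falls to -2.38 in the 158 genes with at least 50% of their exon bases shared on the same strand.

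Among genes with no shared exon base, the widest gaps on the higher side belonged to genes of several kinds. PRDM8, which encodes a histone methyltransferase family protein, was at 352, 266 and 283 CPM in shCtrl and at 63.7 and 67.5 CPM in DMSO (log2 difference 2.19, SE 0.17, adjusted p = 0.00232, edgeR). Its GENCODE v29 span is 80183879 to 80204329 of chromosome 4 (GRCh38). NTNG2, a netrin-like membrane protein, was at 308, 296 and 292 CPM against 117 and 119 CPM. FAM189A1, a membrane protein, was at 52.4, 46.3 and 45.4 CPM against 11.9 and 11.8 CPM. In each, replicate 1 was the highest shCtrl library, and every shCtrl library lay above DMSO. The related genes UBALD1 (47.6, 59.0 and 56.6 CPM against 16.7 and 18.2 CPM) and UBALD2 (75, 56.6 and 61.8 CPM against 16.9 and 15.7 CPM) were both called. SHANK1, a scaffold of synapses, was at 80.6, 78.2 and 76.4 CPM against 29.6 and 31.9 CPM. In the other arms PRDM8 had a log2 difference of 1.27, NTNG2 of 1.19, SHANK1 of 1.20 and UBALD2 of 1.46, in the same direction. TPSB2, a mast cell tryptase, was at 57.9, 24.8 and 26.2 CPM against 5.10 and 6.2 CPM, and its reads cannot be parted from those of its near copy TPSAB1.

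Several stem and progenitor genes were higher in shCtrl. Of 21 members tested, 5 were higher and 1 lower, against 4.55% and 8.78% of all genes. The median log2 difference was 0.37, against 0.03 over all genes. The median was 0.64 for replicate 1 and 0.26 for replicates 2 and 3. SOX4, a transcription factor of progenitor cells, was at 425, 404 and 443 CPM in shCtrl and at 144 and 143 CPM in DMSO (log2 difference 1.56, SE 0.11, adjusted p = 0.00183, edgeR). ZFP36L2, a protein that destabilises mRNAs, was at 490, 459 and 488 CPM against 207 and 215 CPM (log2 difference 1.18). CD99, a surface glycoprotein of leukemic stem cells, was at 364, 376 and 375 CPM against 180 and 193 CPM (log2 difference 0.99). GATA2, a transcription factor of stem cells and mast cells, was at 85.2, 94.3 and 91.1 CPM against 52.6 and 52.9 CPM. The libraries did not overlap for any of these 4, and replicate 1 did not stand apart. SOCS2, a brake on cytokine signalling, was lower, with 11.1, 14.4 and 13.5 CPM against 21.5 and 23.8 CPM.

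Of 23 genes of the translocation or its expression signature, 4 were higher and 1 lower, against 4.55% and 8.78% of all genes. The median was 0.48. CBFB, the partner of RUNX1, was at 194, 175 and 167 CPM against 112 and 118 CPM (log2 difference 0.64, adjusted p = 0.0291, edgeR), and IL17RE, an interleukin receptor chain, at 26.0, 31.0 and 30.9 CPM against 11 and 12 CPM (1.35). JUP, plakoglobin of cell junctions, had a log2 difference of 0.75. PAX5, a B cell factor that this leukemia can express, was low throughout and lower in shCtrl, with 2.02, 1.15 and 1.08 CPM against 5.46 and 4.63 CPM.

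Several feedback genes of NF-kB, a transcription factor that is switched on by stress and infection and that raises its own inhibitors, were higher in shCtrl. Of 18 members tested, 5 were higher and 1 lower, against 4.55% and 8.78% of all genes, with a median of 0.36. The 5 were CXCL2, CXCL3, NFKBIA, NFKBIZ and TNFAIP3. To show a sequence feature of these members, which were chosen as the called ones, the 250 bases before their RefSeq starts (GRCh38.p14) are shown 5' to 3' on the gene's strand. Capitals mark each match, on either strand, to a form of the NF-kB site that was chosen after the values were seen: GGG, any 2 bases, then TTTCC. The windows are chr4:74099196-74099445 (minus strand), chr4:74038690-74038939 (minus), chr14:35404750-35404999 (minus), chr3:101827740-101827989 (plus) and chr6:137867009-137867258 (plus).
CXCL2: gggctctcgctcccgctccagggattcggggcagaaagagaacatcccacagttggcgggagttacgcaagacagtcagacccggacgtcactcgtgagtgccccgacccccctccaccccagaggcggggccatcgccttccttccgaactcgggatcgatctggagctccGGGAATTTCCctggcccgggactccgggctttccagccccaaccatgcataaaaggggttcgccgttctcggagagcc
CXCL3: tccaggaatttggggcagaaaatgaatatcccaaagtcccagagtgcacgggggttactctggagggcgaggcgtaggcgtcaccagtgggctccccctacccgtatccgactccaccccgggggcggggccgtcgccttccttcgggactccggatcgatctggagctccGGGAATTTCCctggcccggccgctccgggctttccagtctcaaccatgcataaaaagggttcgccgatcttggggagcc
NFKBIA: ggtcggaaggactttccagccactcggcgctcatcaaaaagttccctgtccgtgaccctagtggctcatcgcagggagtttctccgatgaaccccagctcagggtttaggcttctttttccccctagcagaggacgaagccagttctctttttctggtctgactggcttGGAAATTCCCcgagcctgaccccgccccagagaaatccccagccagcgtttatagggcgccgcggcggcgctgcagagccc
NFKBIZ: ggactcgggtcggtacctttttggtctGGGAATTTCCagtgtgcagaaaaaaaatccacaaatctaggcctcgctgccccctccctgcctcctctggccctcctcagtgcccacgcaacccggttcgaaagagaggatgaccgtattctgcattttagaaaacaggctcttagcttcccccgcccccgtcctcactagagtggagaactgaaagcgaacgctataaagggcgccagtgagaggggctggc
TNFAIP3: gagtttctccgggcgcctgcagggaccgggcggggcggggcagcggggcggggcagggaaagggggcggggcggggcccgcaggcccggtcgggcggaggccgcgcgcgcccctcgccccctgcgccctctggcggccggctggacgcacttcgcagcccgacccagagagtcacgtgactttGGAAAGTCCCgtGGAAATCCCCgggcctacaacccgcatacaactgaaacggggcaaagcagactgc
A match begins 78 bases before the start in CXCL2, 79 in CXCL3, 81 in NFKBIA and 223 in NFKBIZ, and TNFAIP3 has a pair of matches at 67 and 55. Those of NFKBIA and TNFAIP3 are on the opposite strand. Of the 35116 RefSeq promoters, 608 (1.73%) hold a match. The stricter form with AA as the middle bases, whose matches are all matches to the first, is in 50 of them (0.142%), among them those of CXCL2, CXCL3, NFKBIA and NFKBIZ. Of the 18 members tested, 16 had a promoter and 9 of these held a match, including genes that were not called, such as NFKB1 and REL. A match is a description of the sequence and does not show binding.

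CXCL2, a chemokine that attracts neutrophils, was at 13.8, 17.1 and 25.8 CPM in shCtrl and at 2.13 and 2.09 CPM in DMSO (log2 difference 3.16, SE 0.36, adjusted p = 0.00663, edgeR). CXCL3, a chemokine of the same cluster, was at 5.03, 3.48 and 4.59 CPM against 0.921 and 1.70 CPM. NFKBIA, the inhibitor that holds NF-kB in the cytoplasm, was at 42.1, 29.4 and 32.6 CPM against 15.2 and 15.2 CPM (log2 difference 1.19). TNFAIP3, the ubiquitin-editing inhibitor A20, was at 19.3, 21.3 and 17.8 CPM against 10.6 and 8.41 CPM, and NFKBIZ, a nuclear regulator, at 25.3, 20.6 and 23.6 CPM against 14 and 13.5 CPM. Every shCtrl library was above both DMSO libraries for these 5. TRAF1, an adaptor of TNF receptors, was under 2 CPM everywhere and lower in shCtrl. In the other arms the log2 difference was 2.41 for CXCL2, -0.52 for NFKBIA and -0.13 for NFKBIZ.

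Immediate early genes, which are transcribed within minutes of a stimulus, varied among the shCtrl libraries, and some were higher than in DMSO. Of 24 tested, 4 passed, all higher in shCtrl, against 4.55% of all genes. The median was 0.81, with 0.28 for replicate 1 and 0.81 for replicates 2 and 3. ZFP36, which shortens the life of cytokine mRNAs, was at 40.3, 34.5 and 51.7 CPM in shCtrl and at 12.1 and 13.4 CPM in DMSO (log2 difference 1.73, SE 0.22, adjusted p = 0.00944, edgeR). FOSL2, a FOS family factor, was at 107, 140 and 140 CPM against 67.9 and 61.0 CPM, and DUSP4, a phosphatase of MAP kinases, at 4.49, 3.16 and 3.11 CPM against 1.35 and 1.30 CPM. KLF2, a Kruppel-like factor, had a log2 difference of 0.80. In the other arms all 4 had the opposite sign, with log2 differences of -0.105 for ZFP36, -0.94 for FOSL2 and -0.73 for DUSP4.

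The genes with the largest differences of this kind did not pass the test. EGR1, a zinc finger factor induced by growth signals, was at 23.1, 269 and 584 CPM in shCtrl and at 2.83 and 3.72 CPM in DMSO (log2 difference 6.47, SE 1.57, adjusted p = 0.0545, edgeR). FOS was at 2.70, 58.9 and 90.1 CPM against 0.425 and 0.782 CPM (adjusted p = 0.0768), and FOSB at 1.35, 35.0 and 44.5 CPM against 0.992 and 0.848 CPM (adjusted p = 0.109). For all 3, replicates 2 and 3 were far above both replicate 1 and DMSO. JUN, the partner of FOS, was at 7.91, 46.3 and 21.6 CPM against 14.1 and 14.9 CPM, so that replicate 1 lay below DMSO and replicates 2 and 3 above it. CXCL8, a chemokine, had the same order, with 4.90, 25.5 and 37.5 CPM against 8.29 and 8.15 CPM.

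**Figure D4:**
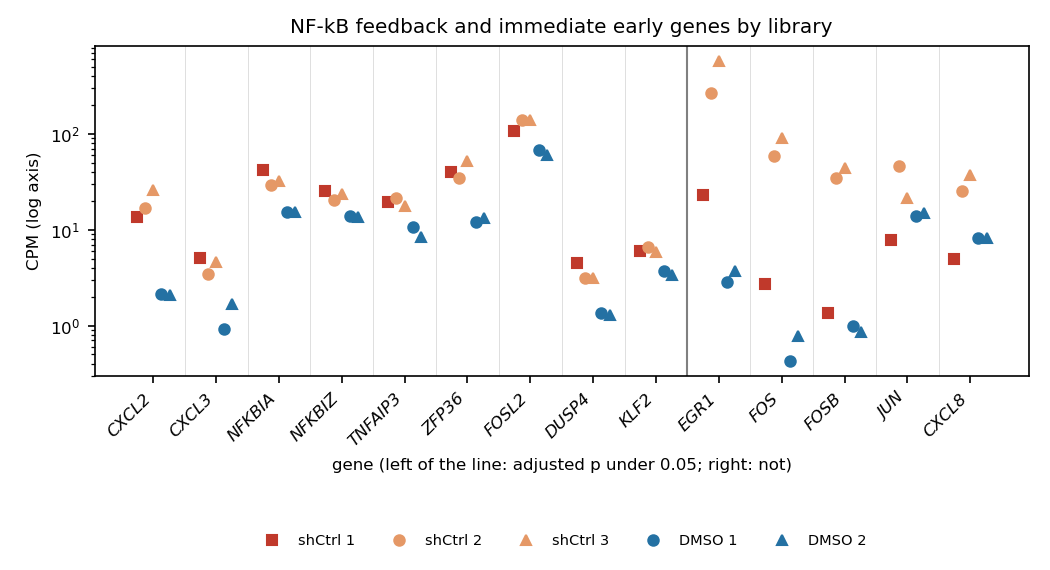
CPM (y axis, log scale) of 14 NF-kB feedback and immediate early genes (x axis) in each of the 5 control libraries; symbols mark the library, and the vertical line parts genes with an adjusted p under 0.05 from those without. CXCL2 is higher in all shCtrl libraries (13.8 to 25.8 CPM) than in DMSO (2.13 and 2.09 CPM), whereas EGR1 runs from 23.1 CPM in shCtrl 1 to 584 CPM in shCtrl 3.

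Lists of responses to a vector held called genes about as often as the 13.3% of all genes or less often, so their counts are no result about the lists. Of 32 interferon response genes, 1 was higher and 3 lower, with a median of 0.17, and of 0.05 against DMSO for either label set. IFI6, an interferon-induced protein of the mitochondrion, was at 6.79, 15.8 and 14.7 CPM in shCtrl and at 3.05 and 2.54 CPM in DMSO (log2 difference 2.15, adjusted p = 0.0348, edgeR). The 3 lower ones, IFITM1, IFITM2 and IRF9, all share exon bases with another gene. Of 17 genes of nucleic acid sensing, 2 passed, both higher, with a median of 0.23: CGAS, the DNA sensor, at 64.3, 61.1 and 60.7 CPM against 42.4 and 43.8 CPM, and TICAM1, an adaptor of a receptor for double-stranded RNA, at 9.17, 7.96 and 8.30 CPM against 3.69 and 2.74 CPM. Of 20 restriction and silencing factors 1 was lower, APOBEC3D, with 83.2% of its exon bases shared. Of 18 genes of the RNA interference machinery, 2 were higher, AGO2 (623, 481 and 478 CPM against 302 and 295 CPM) and AGO3, with a median of 0.38, which was 0.80 for replicate 1 and 0.17 for replicates 2 and 3.

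Targets of p53 and ATF4 were called at shares near those of all genes (4.55% higher and 8.78% lower). Of 23 targets of p53, 1 was higher and 3 lower, with a median of 0.52. SESN2, a stress-induced inhibitor of growth signalling, was at 28.1, 35.3 and 29.6 CPM in shCtrl and at 14 and 13.8 CPM in DMSO (log2 difference 1.16, adjusted p = 0.0124, edgeR), while MDM2, the ubiquitin ligase of p53, was at 42.7, 36.9 and 38.5 CPM against 70.1 and 71.0 CPM. Both are targets of p53, and they lay on opposite sides. Of 28 targets of ATF4, 2 were higher and 3 lower, with a median of -0.24, which was -0.74 for replicate 1 and -0.05 for replicates 2 and 3. ALDH1L2, a mitochondrial folate enzyme, was at 13.3, 13.9 and 14.2 CPM against 48.8 and 49.9 CPM. ASNS, asparagine synthetase, was at 2.92, 3.59 and 2.54 CPM against 111 and 119 CPM, with 44.6% of its exon bases shared.

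Several heat shock chaperones were lower in shCtrl. Of 18 tested, 7 passed, all lower, with a median log2 difference of -0.40, against 8.78% of all genes. The housekeeping genes lay about as low, with 6 of 18 lower and a median of -0.42, so the shift is not particular to chaperones. Of 8 chaperones without any shared exon base, 3 passed. The summed level of all 18 chaperones was 9847, 10580 and 10210 CPM in shCtrl and 15420 and 15070 CPM in DMSO. HSPA1A, the stress-induced HSP70, was at 58.9, 53.7 and 45.2 CPM against 664 and 623 CPM (log2 difference -3.62, SE 0.15, adjusted p = 0.000383, edgeR), and its near-identical copy HSPA1B at 33.2, 24.2 and 22.1 CPM against 336 and 321 CPM. Reads of such copies can be shared out in different ways, so the values of both are uncertain. DNAJB1, an HSP40 co-chaperone, was at 139, 118 and 103 CPM against 422 and 411 CPM (log2 difference -1.79, adjusted p = 0.00304). HSPH1, an HSP110 protein, was at 316, 246 and 233 CPM against 489 and 483 CPM, and DNAJA1 at 309, 327 and 295 CPM against 449 and 448 CPM. HSP90AA1, an HSP90 protein, was at 2194, 2528 and 2435 CPM against 3064 and 3030 CPM and did not pass (adjusted p = 0.119). In the other arms HSPA1A had a log2 difference of -3.67.

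Several genes of sterol synthesis were lower as well. Of 24 tested, 8 passed, all lower, with a median of -0.50 (housekeeping genes, -0.42), against 8.78% of all genes. Below both DMSO libraries were 19 in shCtrl replicate 1 and 19 in both replicates 2 and 3, against 46.4% and 41.9% of all genes. Of 11 members without any shared exon base, 1 passed. HMGCS1, which makes the precursor of mevalonate, was at 90.6, 106 and 101 CPM in shCtrl and at 345 and 339 CPM in DMSO (log2 difference -1.78, SE 0.12, adjusted p = 0.00147, edgeR). EBP, a sterol isomerase, was at 21.9, 39.6 and 38.3 CPM against 108 and 103 CPM. The groups did not overlap for either enzyme. CYP51A1, with the largest difference of the list (-3.87), shares 79.4% of its exon bases. In the other arms HMGCS1 had a log2 difference of -3.13.

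Myeloid surface and transcription factor genes were split. Of 20 tested, 2 were higher and 6 lower, against 4.55% and 8.78% of all genes, with a median of -0.32. CEBPA, a factor needed for granulocytes, was at 3.6, 6.81 and 6.73 CPM in shCtrl and at 25.2 and 24.4 CPM in DMSO (log2 difference -2.11, SE 0.30, adjusted p = 0.0127, edgeR). Of the exon bases of CEBPA, 43.4% overlap another gene on the opposite strand, and the strand setting of the counts is not given. SPI1, the myeloid factor PU.1, was at 32, 46.9 and 45.3 CPM against 87.4 and 88.5 CPM. RAC2, a GTPase of blood cells, was at 14.4, 14.3 and 15.8 CPM against 56.7 and 58.6 CPM, and LAPTM5, found in the lysosomes of leukocytes, at 8.13, 7.46 and 7.01 CPM against 29.7 and 30.3 CPM. PTPRC, the leukocyte phosphatase CD45, was at 9.26, 9.97 and 9.35 CPM against 20.2 and 23.5 CPM. For these 5 the groups did not overlap. GFI1, a repressor needed for neutrophils, was higher, with 748, 687 and 722 CPM against 508 and 495 CPM. Of 10 granule genes only LYZ, lysozyme, was called, with 3.6, 4.09 and 5.19 CPM against 19.4 and 19.8 CPM.

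Several of these did not keep their direction in the other arms. RAC2 was at 111, 64.9 and 63.7 CPM in shRBPMS and at 38.5 and 45.6 CPM in RB98#. PTPRC was at 61.6, 38.6 and 38.2 CPM against 38.2 and 33.4 CPM, and SPI1 at 119, 117 and 113 CPM against 103 and 102 CPM. CEBPA kept its direction, with a log2 difference of -0.80. RAC2, PTPRC and SPI1 were thus lowest in shCtrl among the 4 groups, although the other arms were scaled separately from the controls.

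Several large lists of highly expressed genes lay on different sides of DMSO in the label sets, a difference that was not tested. Over all genes tested, 46.6% lay above and 46.4% below both DMSO libraries in replicate 1, and 42.1% above and 41.9% below in both replicates 2 and 3. Of 79 cytosolic ribosomal protein genes, 8 passed, all lower, near the 8.78% of all genes, with a median of -0.03. All 8 were outside the 27 members that have no shared exon base. In replicate 1, 68 of them lay below both DMSO libraries and the median difference was -0.59, whereas in replicates 2 and 3, 51 lay above DMSO and the median was 0.19. Of 73 nuclear-encoded genes of the respiratory chain, 14 passed, all lower, against 8.78% of all genes. Of the 30 members without a shared exon base, 2 were lower, against 4.38% of all such genes. Over all 73 members, the median was -0.66 for replicate 1 and 0.10 for replicates 2 and 3. The 15 mitochondrially encoded genes had the opposite order, with a median of 1.22 in replicate 1, where all 15 lay above DMSO, and of -0.46 in replicates 2 and 3, where 11 lay below. One of them, MT-ND3, a subunit of complex I, was alike in the shCtrl libraries (1780, 1825 and 1849 CPM) and above DMSO (1340 and 1296 CPM). Of 18 host genes of snoRNAs, 3 passed, all lower, against 8.78% of all genes. Of these 18, 0 were among the genes without a shared exon base. Their median was -1.11 for replicate 1 and -0.16 for replicates 2 and 3.

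FOXO1, a forkhead factor named in the study's title, followed the label sets too, with 39.0, 13.3 and 13.1 CPM in shCtrl and 15.9 and 16.7 CPM in DMSO (adjusted p = 0.656, edgeR). Like RBPMS it was highest in shCtrl replicate 1, and for RBPMS the adjusted p was 0.421. Against replicates 2 and 3 alone, the log2 difference from DMSO was 0.06 for RBPMS and -0.30 for FOXO1.

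**Figure D5:**
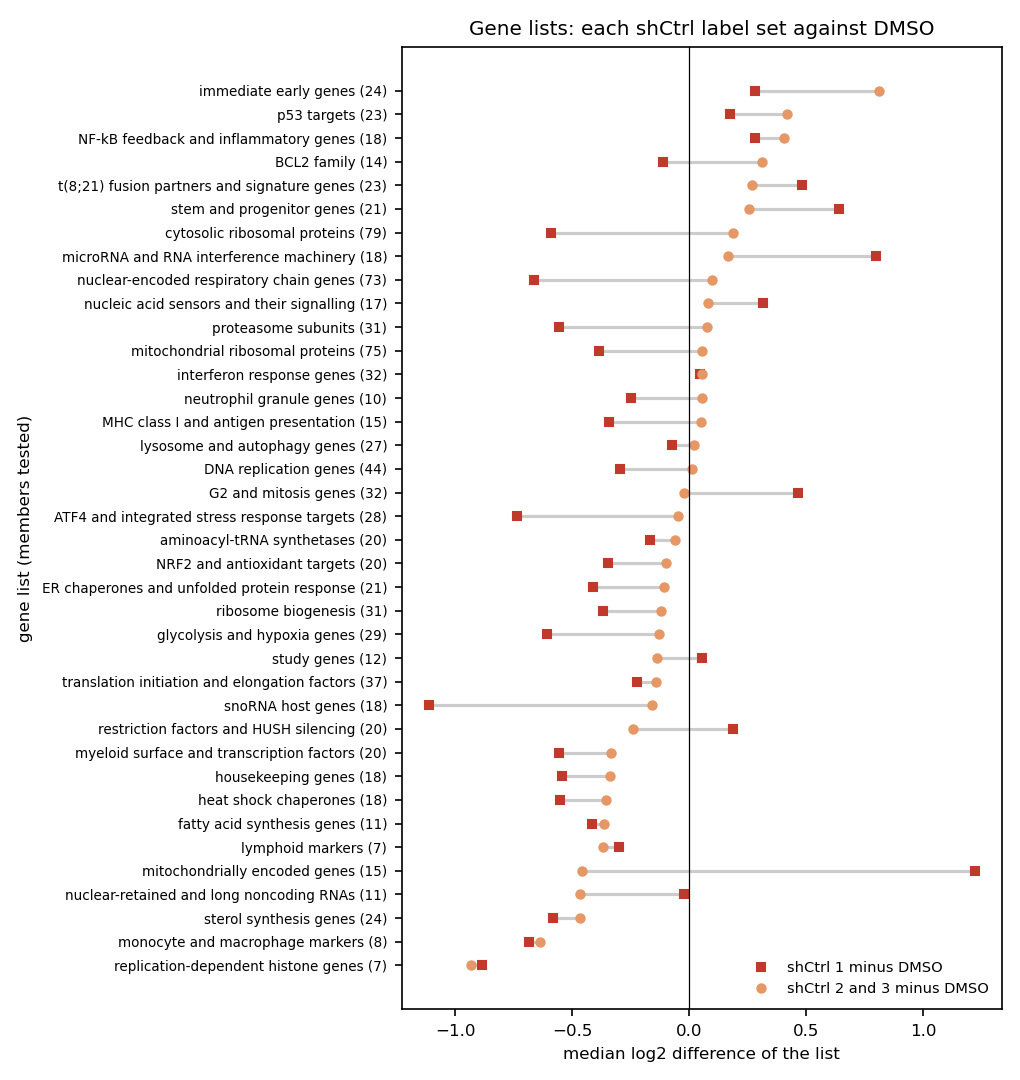
Median log2 difference from DMSO (x axis) of each gene list with at least 7 members tested (y axis, members in brackets), for shCtrl replicate 1 (squares) and for replicates 2 and 3 (circles). Heat shock, sterol synthesis and housekeeping lists lie below 0 and immediate early and stem cell lists above 0 for both sets. Mitochondrially encoded genes (1.22 and -0.46) and ribosomal proteins (-0.59 and 0.19) lie on opposite sides.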

How the data were processed

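RNA-seq counts of 5 control libraries were compared (shCtrl, n = 3, and DMSO, n = 2). The series has 14 samples, and its 4 immunoprecipitation samples (RNA-binding protein and m6A) were not used. Per the file headers, the authors deposited raw counts per Ensembl gene and library in a table for each experiment. Tools listed without a role in the submitters' processing notes include HISAT2 2.2.1, featureCounts 2.0.1, fastp 0.22.0, DESeq2 1.32.0 and StringTie, with the builds hg38 and GRCh38. The gene annotation and strand setting are not given in the sources used here. The tables hold 10 other per-library columns that were not used. From the compound experiment's counts, 112 repeated lines were dropped. The lowest summed count of a gene is 27 in the knockdown table and 50 in the compound table.

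Counts of the 12126 shared genes were tested with edgeR 4.0.16 in R 4.3.3 (quasi-likelihood test, TMM factors, filterByExpr with a minimum count of 10, which kept 12125 genes, Benjamini-Hochberg adjustment). Depth was 14.13 to 33.95 M counts per library. The procedure was tested on simulated data with the same dispersion for every gene and no library set apart. That test therefore does not cover a library like shCtrl replicate 1. Log2 CPM used a prior count of 0.5. Gene models were those of GENCODE v29, matched for 12120 genes, and may differ from the models that were counted. Promoters were from RefSeq. Some genes are not reported here. Gene lists (44) and libraries were chosen with earlier results of these data known. Named genes were the 12 with the widest gap between the groups per direction (adjusted p under 0.05, mean log2 CPM of at least 4), up to 3 per list, the 10 highest, members of the identity lists, 5 steady reference genes and RBPMS, USP1 and FOXO1. The same ranking among genes without exon overlap was added after the data were seen, as were CXCL8, DNAJA1, DNAJB1, EGR1, FOS, FOSB, HSP90AA1, HSPH1, IFITM2, JUN, KLF2, NFKBIA, NFKBIZ and TNFAIP3. Alternatives were other scaling, filters and tools (DESeq2 1.42.0, limma 3.58.1), libraries left out, replicates 2 and 3 summed, a replicate block and the other arms.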

Additional observations from a re-analysis of the deposited data

Results flagged for a closer look

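Genes that only 1 of the tables lists were outside the comparison, and some of them had high counts, scaled here to the shared genes' totals. In DMSO, EEF1G, a translation elongation factor subunit, had a mean of 1450 CPM, MIF, a cytokine, 527 CPM, RPS10-NUDT3 43.6 CPM and RPL17-C18orf32 35.0 CPM, and all of these are listed in the compound table only. In shCtrl, PRRC2B, an RNA-binding protein, had a mean of 438 CPM and the pseudogene RPS28P7 519 CPM, both in the knockdown table only. MRPS5, a mitochondrial ribosomal protein, is listed under a different Ensembl identifier in each table and was therefore outside the shared genes, with 78.3 CPM in shCtrl and 84.7 CPM in DMSO. Such genes held 1.21% to 1.23% of the counts in shCtrl and 0.358% in DMSO.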

How the results depend on the processing

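The direction of the 101 called genes chosen for description was kept under each alternative in which they were tested except the other arms, where 24 turned. The counts of called genes (552 higher and 1064 lower) varied more. Leaving out 1 library gave 5 to 4169 higher and 169 to 4116 lower. They were 100 and 457 with shCtrl replicates 2 and 3 summed, 4146 and 4190 with label set 1 alone against DMSO, 174 and 257 among genes without exon overlap with scaling factors from those genes alone (308 and 252 with the factors over all shared genes), and 1390 and 1760 in the other arms. With all 10 libraries 1125 were higher (1474 lower), and with DESeq2 987 (1377 lower), while limma-voom gave 488 and 1062. The cause was not tested. With the replicate number as a replicate block, 439 were higher and 995 lower. The numbers come from separate experiments and do not pair the libraries (correlation of deviations -0.0276 and -0.0224). The median absolute distance of shCtrl replicate 1 to replicates 2 and 3 (0.448) became 0.436 with library totals, 0.444 with RLE factors, 0.431 with a mean of at least 100 counts and 0.419 without exon overlap. That of replicates 2 and 3 to DMSO (0.355) became 0.361, 0.319 and 0.313 with library totals, that filter and no exon overlap.

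Values with the opposite sign follow, as log2 differences. For genes not called in the main comparison, only those with an adjusted p under 0.05 in the alternative are listed. Other changes of sign, such as MPO in the other arms, are left out. In the other arms CD3D had -0.42, CPXM1 -0.56, SOCS2 0.40, JUP -0.36, PLCG1 -0.28, IFITM2 0.22, SESN2 -0.89, SLC2A3 -1.24, NFKBIA -0.52, NFKBIZ -0.13, ZFP36 -0.10, FOSL2 -0.94, DUSP4 -0.73, KLF2 -0.06, JUN -3.77, SPI1 0.18, LAPTM5 0.09, RAC2 0.92, PTPRC 0.37, ANPEP 1.08, CSF1R 0.67, CTSS 0.09, AGO2 -0.03, AGO3 -0.06, HSD17B10 0.33, TRH -2.32, CD34 0.43, RBPMS -1.31 and FOXO1 -0.58. With label set 1 alone, CXCL8 had -0.75, JUN -0.88, KIT 0.32, CD34 0.44, MPO -0.22, AZU1 -0.28 and MT-CO1 0.63. Without shCtrl replicate 1, MT-ND4 had -0.28, MT-RNR2 -0.49 and FOXO1 -0.30, and the highest values without 1 library were 0.87, 1.04 and 0.68. DMSO has 2 libraries, with lower totals than shCtrl, so low genes are less precise there.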

Other observations

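Genes of MHC class I presentation were split. Of 15 tested, 3 were higher in shCtrl and 1 lower at an adjusted p under 0.05 (edgeR), against 4.55% and 8.78% of all genes. The median log2 difference was 0.00. HLA-C, a class I heavy chain, was at 70.9, 95.9 and 104 CPM in shCtrl and at 39.2 and 41.2 CPM in DMSO. NLRC5, which activates class I genes, was at 66.0, 66.7 and 64.8 CPM against 26.1 and 32.3 CPM. TAP2, a peptide transporter with 32.3% of its exon bases shared with another gene, was at 18.6, 18.5 and 18.7 CPM against 38.4 and 37.7 CPM. The groups did not overlap for these 3, whereas B2M, the shared light chain, differed by 0.05 on the log2 scale.

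TRBV28, a variable segment of the T cell receptor beta chain, was at 46.2, 36 and 35.1 CPM in shCtrl and at 9.99 and 10.4 CPM in DMSO, with a log2 difference of 2.12 in the other arms. CD3D, a chain of the receptor complex and the 1 called member of 7 lymphoid markers (median log2 difference -0.58), was at 9.03, 8.5 and 7.92 CPM against 2.98 and 2.87 CPM, with -0.42 in the other arms. SLC2A3, a glucose transporter, was at 293, 142 and 145 CPM against 58.5 and 61.6 CPM, with -1.24 in the other arms.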
